A study of Mus musculus with 8 samples.

Results

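This report describes 35 genes of the antioxidant, thioredoxin and glutathione systems in granulosa cells, which nurse the oocyte and make estradiol. The genes were listed by name and function, with earlier results of these data known, and each had a row in all 8 libraries, among 35087 rows that carry a gene name. They are the 6 peroxiredoxins, 5 genes of the thioredoxin system, the 3 superoxide dismutases with catalase, 4 glutathione peroxidases, 4 enzymes that make or reduce glutathione, 3 glutaredoxins, 5 glutathione transferases, and 4 genes of the NRF2 axis. Of these, 34 passed the filter on low counts and were tested. Nqo1, which encodes a quinone reductase, did not.

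RNA came from granulosa cells cut by laser microdissection out of mouse ovary cryosections and was amplified with the Smart-seq2 method. The cKO group (n = 2 libraries) came from Hif1aflox/flox; Foxl2-CreERT2 females, which carry Hif1a alleles flanked by loxP sites and a tamoxifen-dependent Cre recombinase driven from the granulosa cell gene Foxl2. The WT group (n = 6 libraries) carried the genotype label wild type, and the design text gives the mice without Cre as Hif1aflox/flox. Tamoxifen at 100 mg/kg daily for 5 days, from 3 weeks of age, was part of the design for both genotypes, with collection of the ovaries 7 days later. The product of Hif1a is the subunit of HIF1 that is stable at low oxygen. In the genotype labels the cKO group is named a knockdown. The descriptions give all 8 samples a library name beginning with cKO, against the titles, which were followed. No label ties a library to an animal, so p-values measure the spread between these libraries and are too small if some share an animal.

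Reactive oxygen species arise from respiration and from the steroid-making cytochromes of the ovary. Superoxide dismutases turn superoxide into hydrogen peroxide, and catalase, the peroxiredoxins and the glutathione peroxidases remove the peroxide. Peroxiredoxins are reduced again by thioredoxin, and thioredoxin by the selenoenzyme thioredoxin reductase, at the cost of NADPH. Glutathione peroxidases draw on glutathione, which the GCLC-GCLM ligase and glutathione synthetase make and glutathione reductase restores. The transcription factor NRF2 (Nfe2l2), held in the cytoplasm by KEAP1, drives many of these genes through antioxidant response elements.

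The libraries differed before any gene group was considered. Depth was 2054584 and 651426 reads on named genes in cKO replicates 1 and 2, and lay between 1594803 (WT replicate 1) and 4719293 reads in WT. The deleted gene, Hif1a, had 22.3 and 13.7 CPM in cKO (normalised read counts, scaled to library size with TMM) and from 35.5 to 106 CPM in WT, with no overlap; edgeR put it at -1.84 ± 0.58 (log2 fold change ± SE, adjusted p = 0.369). The mitochondrial genome took 8.87% and 10.5% of reads in cKO and from 1.42% to 3.65% in WT. Granulosa markers (12 genes, 11 tested) summed to between 1907 and 5431 CPM in cKO and between 3794 and 64440.2 CPM in WT. In that list 7 genes had an unadjusted p under 0.05 in edgeR, all lower (8.89% of all genes tested were), and Nr0b1 had no read in cKO. Leukocyte markers (10 genes, 7 tested) summed to 38.2 and 61.4 CPM in cKO and to between 2.90 and 33.5 CPM in WT, with Tyrobp at 0 in cKO. The summed theca, stroma, endothelial, erythroid and oocyte markers overlapped between the groups. Oocyte markers lay between 36.9 and 66.0 CPM in cKO and between 10.4 and 2318 CPM in WT, and Dppa3 had no read in cKO. The part of these differences in the results below was not tested. A fit with the detected genes of each library as a covariate was run, but that number did not overlap between the groups. In such bulk samples, fewer cells of a type and less RNA per cell cannot be told apart.

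Most of the antioxidant genes were lower in the cKO libraries. Of the 34 tested, 30 had a log2 fold change under 0 (88.2%, against 52.7% of all 15102 genes tested), and 22 lay under -1 (21.2% of all genes did), while none lay above 1 (16.6% of all genes did). The median was -1.40, beside -0.08 over all genes. No member passed an adjusted p of 0.05 in edgeR's quasi-likelihood test (0% of all genes did), and 12 had an unadjusted p under 0.05, all of them lower in cKO. This is 35.3% of the members, against 8.89% of all genes that were lower at that p, and 0 members were higher, against 3.4% of all genes. DESeq2 gave an adjusted p to 30 members and called 5 lower and 0 higher (3.53% and 0.451% of all the genes to which it gave one), namely Prdx1, Prdx6, Txn2, Gpx4 and Mgst1. The limma-voom fit called none of the 34, and 13 were lower there at an unadjusted p under 0.05 (38.2%, against 6.81% of all genes). In 4 members, Prdx6, Txn2, Gpx8 and Glrx, both cKO libraries lay below all 6 WT libraries (11.8%, against 6.41% of all genes), and no member was higher without overlap (6.02% of all genes).

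The size of this difference depended on which cKO library was kept. Without cKO replicate 2, the shallowest library, the median of the members was -0.92 (-0.34 over all genes). There 2 of 35 members were lower at an unadjusted p under 0.05 (5.71%), near the 3.5% of all genes. Without cKO replicate 1 the median was -2.59 (-0.27 over all genes), and 18 of 35 members were lower at that p (51.4%, against 10.2% of all genes). Detected genes (5 reads or more) numbered 12847 or fewer in the cKO libraries and 13597 or more in the WT libraries. With that number as a covariate, the median of the members was -0.30, beside -0.26 over all genes, and no member had an unadjusted p under 0.05 in edgeR (2.31% of all genes were lower at that p). Because the number did not overlap between the groups, this fit cannot tell the number of detected genes apart from group.

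**Figure D1:**
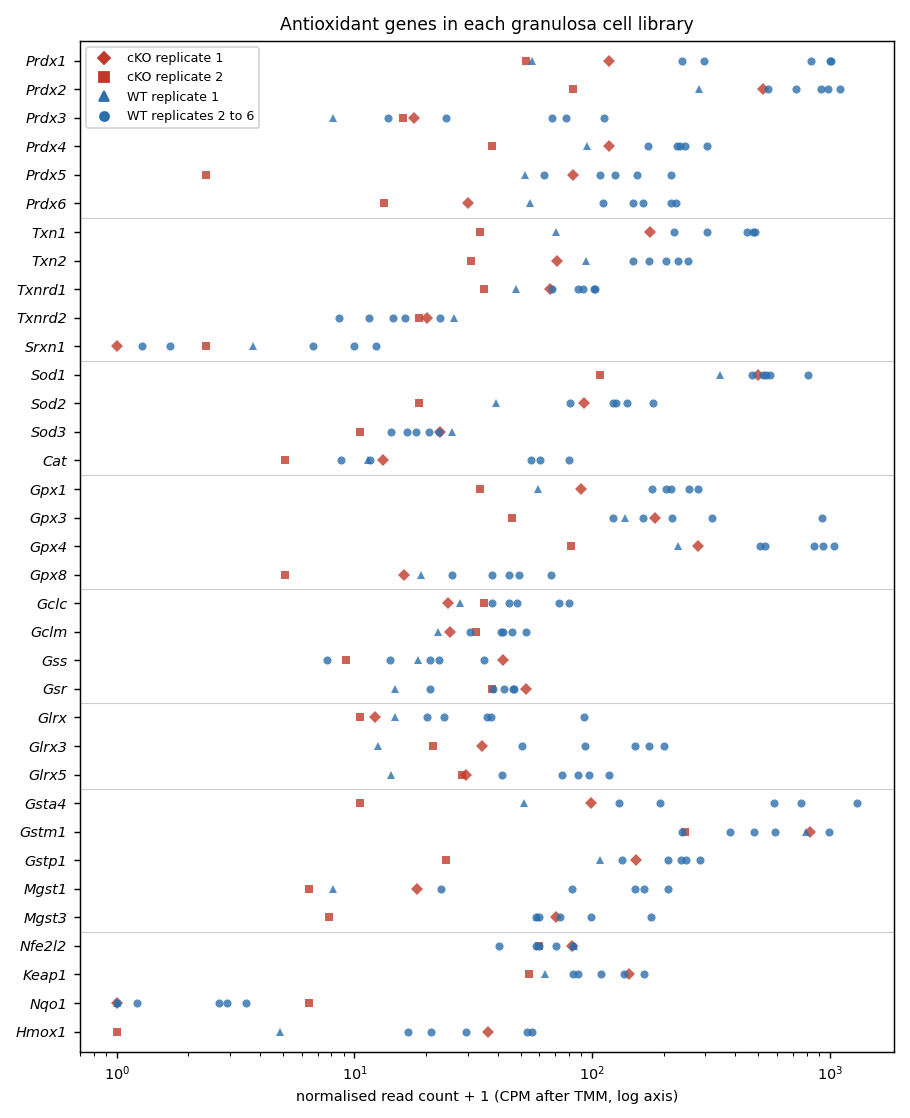
Normalised read count plus 1 of each of the 35 antioxidant genes (rows, grouped by role) on a log axis, with 1 symbol per library, red for cKO and blue for WT. The cKO replicate 2 square is the lowest point in 23 of the 34 tested genes, and the WT replicate 1 triangle is the lowest in 5.

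The promoters of 4 genes with an unadjusted p under 0.05 are shown, as examples with and without a motif, because the deleted factor and NRF2 each have a known core motif. Windows from 250 bases before to 50 bases after a start site came from RefSeq on GRCm38.p6, and 29 of the 35 genes matched by symbol. Prdx6 and Gsta4 were not among the 29. The core of the antioxidant response element was searched as TGACNNNGC, and that of the hypoxia response element as ACGTG or GCGTG, on both strands. The first was found in at least 1 window of 7 members (24.1%, against 14.0% of all genes in the table), Prdx1, Txnrd1, Srxn1, Sod1, Gclm, Mgst1 and Nfe2l2. The second was found in 21 members (72.4%, against 46.7% of all genes). In both shares all genes are the 27025 in the promoter table, whether tested here or not. A gene with more windows had more chances of a match, and base composition was not matched. Whether the members hold either motif more often than like genes was not tested. In the Sod1 window a match of each kind overlaps. Such matches are letters in a window, and no binding was measured here. Below, Prdx1 (chr4:116685349-116685648, plus strand) and Mgst1 (chr6:138140277-138140576, plus strand) are genes called lower by DESeq2 that hold the first motif. A second Mgst1 window, not printed, holds neither motif. Txnrd1, Srxn1, Sod1, Gclm and Nfe2l2, also with the first motif, had no unadjusted p under 0.05 in edgeR. Gpx8 (chr13:113046339-113046638, minus strand) holds the second, and Txn2 (chr15:77928945-77929244, minus strand) holds neither. Each is written 5′ to 3′ on the strand of its gene, with the motif in capitals.
Prdx1: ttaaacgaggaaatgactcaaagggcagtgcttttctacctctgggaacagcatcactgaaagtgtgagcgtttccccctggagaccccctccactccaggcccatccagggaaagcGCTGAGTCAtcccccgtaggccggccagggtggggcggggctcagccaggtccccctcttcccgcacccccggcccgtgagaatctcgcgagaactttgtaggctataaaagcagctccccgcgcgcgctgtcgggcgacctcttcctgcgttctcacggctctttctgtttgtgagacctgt
Mgst1: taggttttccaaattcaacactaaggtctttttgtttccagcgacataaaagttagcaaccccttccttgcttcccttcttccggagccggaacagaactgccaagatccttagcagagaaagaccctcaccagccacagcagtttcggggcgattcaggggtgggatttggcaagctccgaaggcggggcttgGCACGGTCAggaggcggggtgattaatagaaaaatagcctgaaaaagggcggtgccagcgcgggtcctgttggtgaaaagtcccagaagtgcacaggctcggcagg
Gpx8: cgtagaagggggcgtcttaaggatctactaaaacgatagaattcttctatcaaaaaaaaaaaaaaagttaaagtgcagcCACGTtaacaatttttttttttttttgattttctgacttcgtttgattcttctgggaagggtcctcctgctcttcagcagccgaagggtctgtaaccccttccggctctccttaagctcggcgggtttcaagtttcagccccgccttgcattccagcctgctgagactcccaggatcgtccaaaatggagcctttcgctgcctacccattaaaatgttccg
Txn2: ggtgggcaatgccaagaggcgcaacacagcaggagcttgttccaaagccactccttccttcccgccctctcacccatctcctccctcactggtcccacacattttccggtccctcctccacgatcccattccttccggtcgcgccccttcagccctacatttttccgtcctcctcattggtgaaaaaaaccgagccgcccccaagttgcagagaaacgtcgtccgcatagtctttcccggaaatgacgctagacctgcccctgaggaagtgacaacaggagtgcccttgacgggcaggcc

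All 6 peroxiredoxin genes had lower means in cKO, and 3 had an unadjusted p under 0.05 in edgeR (median log2 fold change -1.55). Prdx6 (chromosome 1, 161240112 to 161251219, minus strand) encodes the only peroxiredoxin with a single active cysteine, which also acts on phospholipids. In cKO replicates 1 and 2 its level was 28.9 and 12.3 CPM, with a lowest value of 53.9, a median of 155 and a highest of 225 CPM in WT. Every WT library was above both cKO libraries, the nearest being WT replicate 1. The means were 20.6 ± 11.8 CPM (SD, n = 2) and 152 ± 64.4 CPM (SD, n = 6), or -2.84 ± 0.65 on the log2 scale (fold change ± SE), with the smallest p among the members in edgeR (unadjusted p = 0.000638, adjusted p = 0.369). DESeq2 gave an adjusted p = 0.00173. Over the alternatives Prdx6 ranged from -3.69 without cKO replicate 1 to -1.56 with detected genes as a covariate, where its edgeR unadjusted p was 0.138.

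Prdx1 (chromosome 4, 116685544 to 116700822, plus strand), whose promoter is printed above, encodes the main cytosolic peroxiredoxin. It had 117 and 51.9 CPM in cKO, against 54.9, 564 and 1009 CPM as the lowest, median and highest WT values. WT replicate 1, at 54.9 CPM, lay inside the cKO range, and the other 5 lay above it. Its log2 fold change was -2.75 ± 0.99 (SE, edgeR unadjusted p = 0.0148, adjusted p = 0.369, DESeq2 adjusted p = 0.0278). Over the alternatives it ranged from -3.53 without cKO replicate 1 to -0.43 with the covariate, and was -0.92 in the libraries numbered 1 and 2 alone.

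Prdx4 (chromosome X, 155323918 to 155340754, minus strand) encodes the peroxiredoxin of the endoplasmic reticulum, where oxidative folding makes peroxide. It had 117 and 36.9 CPM in cKO and 94.5, 230.5 and 304 CPM as the lowest, median and highest in WT. Only WT replicate 1 fell within the cKO range. This gave a log2 fold change of -1.45 ± 0.57 (SE, edgeR unadjusted p = 0.024, adjusted p = 0.376). Over the alternatives Prdx4 lay between -2.59 (cKO replicate 1 left out) and -0.82 (covariate).

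Prdx2 (chromosome 8, 84969587 to 84974834, plus strand), a second cytosolic peroxiredoxin that is abundant in red blood cells, had 526 and 82.0 CPM in cKO and 279.7, 819.5 and 1105 CPM as the lowest, median and highest in WT. The cKO libraries differed from each other more than cKO replicate 1 did from the WT median. Prdx2 stood at -1.31 ± 0.72 (log2 fold change ± SE, edgeR adjusted p = 0.467), which became -0.60 without cKO replicate 2 and -3.27 without cKO replicate 1. Its exons overlap those of Junb and Rnaseh2a, and the library method does not mark strand, so reads there cannot be assigned to 1 gene. The summed erythroid markers were 419 and 66.9 CPM in cKO and between 43.6 and 376 CPM in WT, and their part in this value was not tested. Prdx3, in the mitochondrial matrix, had 16.7 and 15.03 CPM in cKO. In WT it had 7.14, 23.2 and 12.9 CPM in replicates 1 to 3 and 76.6, 111 and 66.8 CPM in replicates 4 to 6. Prdx5 had 82.2 and 1.37 CPM in cKO, the latter from 1 read, and from 51.1 to 215 CPM in WT.

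In the thioredoxin system 4 of 5 genes had a log2 fold change under 0, and the 2 thioredoxins were lower at an unadjusted p under 0.05. Txn2 (chromosome 15, 77915047 to 77929006, minus strand) encodes the mitochondrial thioredoxin. It had 70.5 and 30.1 CPM in cKO and 92.9, 188 and 252 CPM as the lowest, median and highest in WT, so the groups did not overlap. Its log2 fold change was -1.84 ± 0.54 (SE, edgeR unadjusted p = 0.00421, adjusted p = 0.369, DESeq2 adjusted p = 0.0158). Over the 18 alternatives it ranged from -2.67 without cKO replicate 1 to -0.99 with the covariate. Txn1 (chromosome 4, 57943373 to 57956411, minus strand), the cytosolic thioredoxin, had 174 and 32.8 CPM in cKO and 69.2, 377 and 486 CPM as the lowest, median and highest in WT. Again WT replicate 1 lay inside the cKO range and no other WT library did. Txn1 stood at -1.68 ± 0.77 (log2 fold change ± SE, edgeR unadjusted p = 0.0477, adjusted p = 0.404), and ranged from -3.41 without cKO replicate 1 to -0.05 with the covariate.

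Txnrd1, the cytosolic thioredoxin reductase, had 65.5 and 34.1 CPM in cKO and from 46.7 to 102 CPM in WT (log2 fold change -0.71 ± 0.46, SE, edgeR adjusted p = 0.531). Txnrd2, the mitochondrial reductase, had 19.3 and 17.8 CPM in cKO and from 7.64 to 25.3 CPM in WT, at 0.24 ± 0.62. Both cKO values of Txnrd2 fell inside the WT range. Srxn1 encodes sulfiredoxin, which rescues overoxidised peroxiredoxins. It had 0 and 1 read in the cKO libraries and at most 11.3 CPM in WT, so its fitted value is not a measured size.

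The 3 superoxide dismutases and catalase all had a log2 fold change under 0, with a median of -0.93, and none had an unadjusted p under 0.05 in edgeR. Sod1 (chromosome 16, 90220754 to 90226329, plus strand), the cytosolic copper-zinc enzyme, had 499 and 107 CPM in cKO and 345, 532 and 808 CPM as the lowest, median and highest in WT. cKO replicate 1 sat among the WT libraries and cKO replicate 2 below all of them. Sod1 stood at -0.83 ± 0.59 (log2 fold change ± SE, edgeR adjusted p = 0.565), -0.17 without cKO replicate 2 and -2.41 without cKO replicate 1. Sod2, the manganese enzyme of mitochondria, showed the same order, with 91.3 and 17.8 CPM in cKO and from 38.5 to 179 CPM in WT. Sod3, the secreted enzyme, had 21.8 and 9.56 CPM in cKO and from 13.3 to 24.7 CPM in WT, the narrowest WT spread of any member tested (coefficient of variation 22.3%).

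Cat, which encodes the peroxisomal peroxide-splitting enzyme catalase, split the WT libraries, as Prdx1, Prdx3 and Mgst1 did among other members. Cat had 10.4, 10.7 and 7.80 CPM in WT replicates 1 to 3 and 54.4, 79.0 and 59.4 CPM in WT replicates 4 to 6. The cKO libraries, at 12.2 and 4.10 CPM, were close to the first 3, and 4.10 CPM stands for 3 reads. Cat stood at -2.10 ± 0.99 (log2 fold change ± SE, edgeR adjusted p = 0.410), but at -0.28 in the libraries numbered 1 and 2 and 0.94 with detected genes as a covariate.

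Glutathione peroxidases were lower in cKO in all 4 cases, with 3 at an unadjusted p under 0.05 and a median log2 fold change of -1.80. Gpx4 (chromosome 10, 80047166 to 80056439, plus strand) encodes the selenoenzyme that reduces lipid peroxides and holds off ferroptosis. It had 278 and 80.6 CPM in cKO and 228, 695 and 1047 CPM as the lowest, median and highest in WT. WT replicate 1 was again the only WT library within the cKO range. Gpx4 stood at -1.93 ± 0.70 (log2 fold change ± SE, edgeR unadjusted p = 0.0161, adjusted p = 0.369, DESeq2 adjusted p = 0.0353). It ranged from -3.15 without cKO replicate 1 to -0.31 with the covariate.

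Gpx1 (chromosome 9, 108338903 to 108340343, plus strand), the main cytosolic selenoperoxidase, had 88.8 and 32.8 CPM in cKO and 58.2, 209 and 277 CPM as the lowest, median and highest in WT. Of the WT libraries, replicate 1 alone lay below a cKO library. Gpx1 stood at -1.68 ± 0.62 (log2 fold change ± SE, edgeR unadjusted p = 0.0167, adjusted p = 0.369). Over the alternatives Gpx1 lay between -2.65 with cKO replicate 1 left out and -1.02 with the replicate number as a block. Gpx8 (chromosome 13, 113042753 to 113046410, minus strand) encodes an endoplasmic reticulum peroxidase that has cysteine in place of selenocysteine. It had 15.2 and 4.10 CPM in cKO and 18.1, 40.4 and 66.0 CPM as the lowest, median and highest in WT, without overlap. Gpx8 stood at -1.94 ± 0.67 (log2 fold change ± SE, edgeR unadjusted p = 0.0116, adjusted p = 0.369). It rested on 33 reads in cKO, of which 3 were in cKO replicate 2, and was -3.33 without cKO replicate 1 and -0.76 with the covariate. Gpx3, the secreted plasma form, had 183 and 45.1 CPM in cKO and from 121 to 925 CPM in WT, with the highest value in WT replicate 3 alone. Its log2 fold change was -1.45 ± 0.84 (SE, edgeR adjusted p = 0.486), and -0.71 without that library.

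Of the enzymes that make and reduce glutathione, 2 were lower and 2 higher in mean. Their median log2 fold change was -0.04, and none had an unadjusted p under 0.05. Gclc, the catalytic subunit of the rate-limiting ligase, had 23.9 and 34.1 CPM in cKO and from 26.9 to 79.2 CPM in WT (-0.83 ± 0.51). Gclm, its modifier subunit, had 24.4 and 31.4 CPM against 21.4 to 51.5 CPM in WT (-0.46 ± 0.48). Gss, glutathione synthetase, had 41.1 and 8.20 CPM against 6.63 to 34.2 CPM in WT (0.42 ± 0.68). Its direction turned to -1.26 without cKO replicate 1. Gsr, glutathione reductase, had 51.8 and 36.9 CPM against 13.7 to 45.9 CPM in WT (0.38 ± 0.51), and was the 1 member tested with a value above 0 under all 18 alternatives. Whether these enzymes differ from the peroxidases in their response was not tested.

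**Figure D2:**
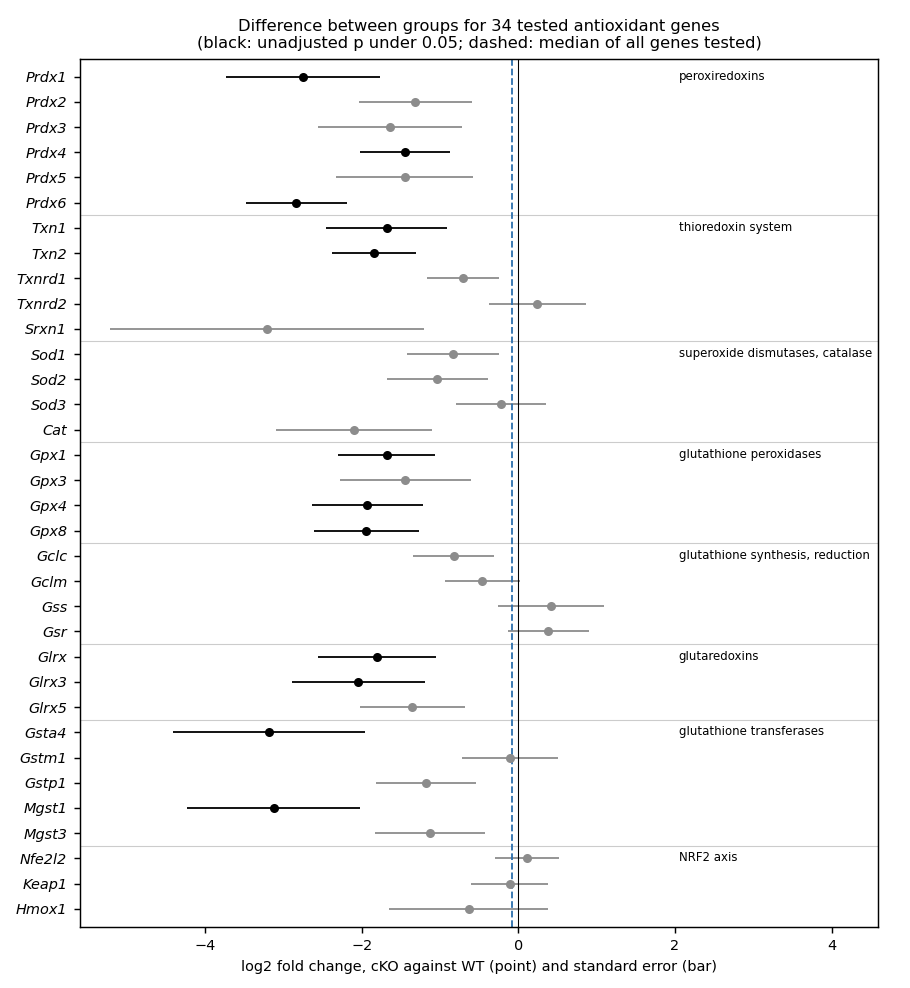
Log2 fold change of cKO against WT for each tested antioxidant gene (points) with its standard error (bars), grouped by role, with black points for an unadjusted p under 0.05. The black points all lie at -1.45 or lower, and the glutathione synthesis and NRF2 axis genes lie between -0.83 and 0.42.

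Glutaredoxins, which use glutathione to reduce protein disulfides, were lower in cKO in all 3 cases, with 2 at an unadjusted p under 0.05. Glrx (chromosome 13, 75839868 to 75850154, plus strand), the cytosolic form, had 11.2 and 9.56 CPM in cKO and 13.7, 29.1 and 91.2 CPM as the lowest, median and highest in WT, without overlap. The gap between the groups was small, since WT replicate 1 sat at 13.7 CPM. The log2 fold change was -1.80 ± 0.76 (SE, edgeR unadjusted p = 0.0318, adjusted p = 0.380). It was -1.18 without WT replicate 6, -1.05 with the replicate number as a block and -2.58 with the covariate. Glrx3 (chromosome 7, 137437614 to 137468594, plus strand), which handles iron-sulfur clusters in the cytosol, had 33.5 and 20.5 CPM in cKO and 11.5, 122 and 201 CPM as the lowest, median and highest in WT. WT replicate 1, at 11.5 CPM, was below both cKO libraries and the other 5 were above both. Glrx3 stood at -2.04 ± 0.85 (log2 fold change ± SE, edgeR unadjusted p = 0.0306, adjusted p = 0.380), from -2.53 without cKO replicate 1 to -0.31 with that block. Glrx5, the mitochondrial glutaredoxin of iron-sulfur cluster assembly, had 28.4 and 27.3 CPM in cKO and from 13.2 to 116 CPM in WT (-1.35 ± 0.68).

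The glutathione transferases, which join glutathione to electrophiles, were all lower in mean, from -3.19 for Gsta4 to -0.11 for Gstm1, with a median of -1.18 and 2 at an unadjusted p under 0.05. Gsta4 (chromosome 9, 78182774 to 78209349, plus strand) encodes the form that clears the lipid aldehyde 4-hydroxynonenal. It had 97.9 and 9.56 CPM in cKO, the latter from 7 reads, and 50.6, 387 and 1308 CPM as the lowest, median and highest in WT. Its WT values ran from 50.6 and 129 CPM in replicates 1 and 2 to 1308 CPM in replicate 4, so the WT libraries spread more widely than the group means did. Gsta4 stood at -3.19 ± 1.23 (log2 fold change ± SE, edgeR unadjusted p = 0.0211, adjusted p = 0.374), from -5.78 without cKO replicate 1 to -0.32 with the covariate, and -0.64 in the libraries numbered 1 and 2. Mgst1 (chromosome 6, 138140316 to 138156755, plus strand), a membrane-bound transferase with peroxidase activity, had 17.3 and 5.46 CPM in cKO and 7.14, 116 and 207 CPM as the lowest, median and highest in WT. WT replicate 1 lay inside the cKO range, and WT replicate 2 followed at 22.1 CPM. Mgst1 stood at -3.12 ± 1.11 (log2 fold change ± SE, edgeR unadjusted p = 0.0137, adjusted p = 0.369, DESeq2 adjusted p = 0.0338), from -4.33 without cKO replicate 1 to -0.24 in the libraries numbered 1 and 2.

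Gstm1 (chromosome 3, 108012255 to 108017973, minus strand) encodes a mu-class transferase. It had 829.7 and 245 CPM in cKO and 238, 533 and 992 CPM as the lowest, median and highest in WT, and both cKO libraries fell within the WT range. The log2 fold change was -0.11 ± 0.61 (SE, edgeR adjusted p = 0.956). Without cKO replicate 2 it was 0.46 and without cKO replicate 1 it was -1.30. Gstp1, of the pi class, had 152 and 23.2 CPM in cKO and from 107 to 284 CPM in WT. Mgst3 had 69.5 and 6.83 CPM in cKO and from 57.1 to 175 CPM in WT. In both of these genes cKO replicate 1 lay inside the WT range and cKO replicate 2 below it.

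None of the 3 tested genes of the NRF2 axis had an unadjusted p under 0.05 in edgeR. Nfe2l2, which encodes NRF2, had 81.2 and 58.7 CPM in cKO and from 39.8 to 83.0 CPM in WT (log2 fold change 0.11 ± 0.41, SE, edgeR adjusted p = 0.928). Keap1, which encodes its inhibitor, had 142 and 53.3 CPM in cKO and from 62.6 to 165 CPM in WT (-0.11 ± 0.49, SE, edgeR adjusted p = 0.941). Both cKO values of Nfe2l2 fell inside its WT range, and the SE of either gene leaves room for a difference in each direction. Hmox1, the heme oxygenase gene and a classic NRF2 target, had 35.5 CPM in cKO replicate 1, no read in cKO replicate 2, and from 3.85 to 54.9 CPM in WT. A count of 0 in cKO replicate 2 allows up to 3 reads, which is 4.10 CPM there. Nqo1, another classic target, was near the floor in every library, with 0 and 5.46 CPM in cKO (the latter from 4 reads) and at most 2.49 CPM in WT.

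Compared per transcript length, in deposited TPM, the most abundant members in WT were Prdx2 at 1074 ± 301 TPM and Sod1 at 1053 ± 166 TPM (SD, n = 6). Gpx4 at 902 ± 332, Gstm1 at 783 ± 474 and Gsta4 at 569 ± 514 TPM followed. Neighbours in this order were closer than their SD. The SD does not measure the spread of differences within libraries, which were not compared. This is therefore an order of means only and was not tested. At the other end were Sod3 at 4.62 ± 1.30, Srxn1 at 1.76 ± 1.70 and Nqo1 at 0.613 ± 0.663 TPM. In cKO the highest mean was that of Gstm1, at 897 ± 482 TPM (SD, n = 2), and Gsta4 was at 54.5 ± 57.8 TPM. Among WT libraries the median coefficient of variation in CPM was 44.5% over the tested members and 53.7% over all genes tested. The median level over all libraries was 52.2 TPM for the members and 9.44 TPM for all genes. Genes of like level were not compared, so whether the members' spread is usual was not tested.

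The level of the members varied between libraries within each group. Measured as log2(CPM + 1) against its WT mean, the median member lay at -2.36 in cKO replicate 2, at -1.05 in WT replicate 1, -0.63 in cKO replicate 1 and -0.29 in WT replicate 3. The other WT libraries lay between 0.11 and 0.52. Those 4 lowest libraries are also the 4 with the fewest reads, in the same order, from 651426 to 2330139. The summed granulosa markers were also lowest in cKO replicate 2, WT replicate 1 and cKO replicate 1 (1907, 3794 and 5431 CPM). WT replicate 2 came next at 9112 CPM, and WT replicate 4 was highest at 64440.2 CPM. Over all genes tested the median deviation stayed between -0.04 and 0.05 in every library. TMM scaling centres the bulk of genes, so values near 0 follow from it. They cannot show whether other genes of like level shift with the members. cKO replicate 2 held the lowest value of 23 of the 34 tested members, against 25.3% of the genes with a single lowest library, and WT replicate 1 held that of 5. Without these 2 shallowest libraries, an alternative added after seeing the data, the median over the members was -1.02 (-0.25 over all genes), with 27 of 35 lower and 9 lower at an unadjusted p under 0.05 (25.7%, against 7.11% of all genes). The cKO libraries are the shallowest and the third shallowest, so depth and group cannot be told apart by this order. The part of depth and that of the granulosa markers were not tested.

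**Figure D3:**
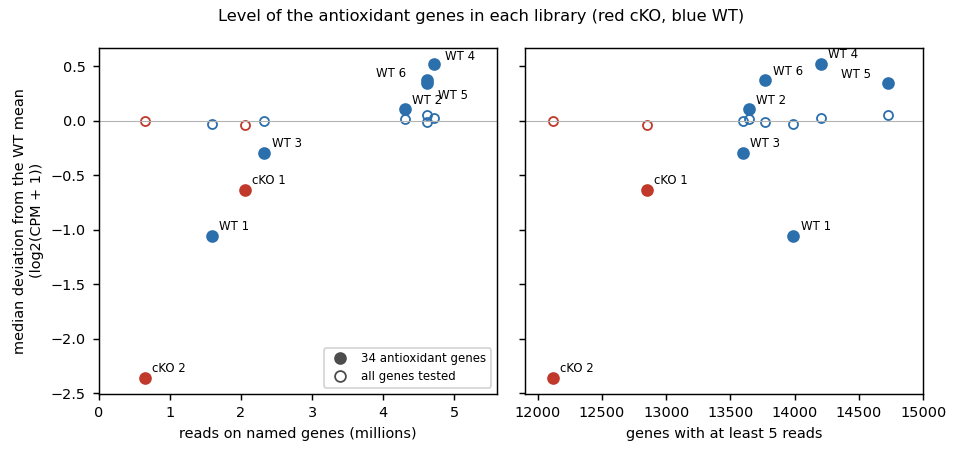
Median deviation of the 34 tested antioxidant genes (filled) and of all genes tested (open) from their WT means in log2(CPM + 1), for each library, against reads on named genes and against the number of genes with at least 5 reads. The filled points run from -2.36 in cKO replicate 2 to 0.52 in WT replicate 4. The open points stay near 0, where TMM scaling places them.

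Short and abundant transcripts make up much of the group. The median coding transcript of the members is 1215 bases long, against 2257 over all genes tested that have a coding length. Members under 1000 bases (13) were lower in cKO in all 13 cases, with a median of -1.68. Of all genes of that length 68.4% were lower, with a median of -0.53. The 8 members of 2000 to 4000 bases, among them Nfe2l2, Keap1, Gsr and Gclc, had a median of -0.46, and all genes of that length a median of -0.00239. Level showed a like pattern. Members with a mean of at least 100 TPM (13) had a median of -1.68 and 8 of them (61.5%) were lower at an unadjusted p under 0.05, against a median of -0.77 and 26.1% over all genes at that level. Across genes, Spearman's rho of the log2 fold change with length was 0.35 over 34 members and 0.24 over 14261 genes, a description of genes that share the same libraries. The part of length and level in the differences was not tested.

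**Figure D4:**
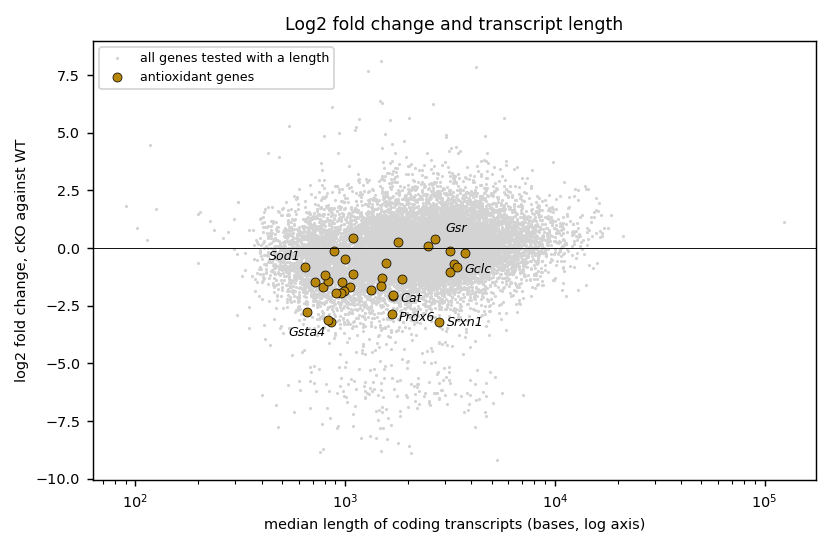
Log2 fold change of cKO against WT against the median length of a gene's coding transcripts in bases (log axis), for all genes tested with such a length (grey) and for the tested antioxidant genes (gold). The gold points under 1000 bases all lie below 0, and the grey cloud rises with length.

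A wider list of 60 genes of the same pathways, none of them members, lay mostly on the same side. Of 59 tested, 50 were lower (84.7%, against 52.7% of all genes) and 9 higher, with a median of -0.94. At an unadjusted p under 0.05 there were 18 lower (30.5%, against 8.89% of all genes) and 0 higher (3.4% of all genes). In edgeR 0 passed the adjusted threshold. DESeq2 called 6 of the 38 to which it gave an adjusted p, all lower (3.53% of all the genes to which it gave one were called lower). The 5 with the smallest p were Gpx7, an endoplasmic reticulum peroxidase (-2.35 ± 0.68), Gsto1, an omega-class transferase (-2.82 ± 0.88), Selenof, an endoplasmic reticulum selenoprotein (-3.26 ± 1.08), Sqstm1, the autophagy receptor that binds KEAP1 (-1.87 ± 0.63), and Taldo1, the transaldolase of the pentose phosphate pathway (-2.20 ± 0.75), each with an edgeR adjusted p = 0.369. On the other side, the smallest p values belonged to Slc7a11, the cystine transporter (1.09 ± 0.77), Msrb3, a methionine sulfoxide reductase (1.51 ± 1.13), Mafk, a small MAF partner of NRF2 (0.67 ± 0.51), Gstt3 (1.75 ± 1.33) and Abcc1, an export pump for glutathione conjugates (0.69 ± 0.53). None of those 5 had an unadjusted p under 0.05 in edgeR, the smallest being 0.179. Some of the named genes rested on few reads. In cKO replicates 1 and 2, Gsto1 had 13 and 1 reads and Selenof 31 and 5. Msrb3 had 22 and 5 there, and Gstt3 had 3 and 14. WT replicate 1 lay inside the cKO range in Gpx7, Selenof, Sqstm1 and Taldo1.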

How the data were processed

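Polyadenylated RNA of laser-microdissected granulosa cells was amplified with Smart-seq2 and made into Tn5 libraries, per the labels' protocols. For each library the authors deposited a table whose columns, per the file headers, are those of Salmon: estimated counts, TPM and 2 lengths. HISAT2, Salmon and mm10 are named in the submitters' processing notes. Versions and annotation were not given in the sources used here. Rows with a transcript identifier only (1548 of 36635, from 0.435% to 0.739% of reads) were left out.

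Estimated counts were rounded and filtered with edgeR's filterByExpr (minimum count 10, minimum total 15), leaving 15102 genes. Groups were taken from titles. The fit used edgeR 4.0.16 (TMM, glmQLFit, glmQLFTest; no term but group), run in R 4.3.3. P-values were adjusted over all genes by Benjamini-Hochberg, and the SE comes from the F statistic. Alternatives used DESeq2 1.42.0, limma 3.58.1 on voom values and on log2(TPM + 1) of the deposited TPM, other scalings and filters, a covariate, a block, and fewer libraries. The fit was tested on simulated data.

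The members, lists and alternatives were chosen with earlier results of these data known. Both cKO values and the lowest, median and highest WT values are given for members without overlap, those at an unadjusted p under 0.05, and the 5 with the highest TPM. Promoters are printed for at most 5 of these. From the wider list, the log2 fold change is given for the 5 smallest p in each direction. Gene coordinates come from GENCODE M21 (GRCm38, equal to mm10), matched by symbol. In 15 of 35 members at least 1 library held a count that was not whole (tolerance 0.01), so reads were shared with another row; exons of Prdx2, Prdx5, Txnrd2, Gclm, Gss and Keap1 overlap another gene. Depth was 651426 to 4719293 reads, and 3 reads, the limit for a count of 0, were 0.655 to 4.10 CPM. Reads carry no molecular identifiers, so this limit covers counting error only.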

Additional observations from a re-analysis of the deposited data

Results flagged for a closer look

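In 3 members a single WT library stood far from the other 5, with a gap to its nearest neighbour, as a share of the whole WT range, above Dixon's critical value for 6 samples. Gpx3 had 925 CPM in WT replicate 3, where the next value was 319 CPM (gap 0.755 of the range). Glrx had 91.2 CPM in WT replicate 6, with 36.5 CPM next (0.706). Mgst3 had 175 CPM in WT replicate 2, with 98.4 CPM next (0.651). Each stood high, each in another library. The members were 35, and chance flags about 1 in 20 groups, so a count of 3 is not unusual. Without the library in question the log2 fold change was -0.71 for Gpx3, -1.18 for Glrx and -0.79 for Mgst3.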

How the results depend on the processing

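Over 18 alternative settings, 20 of the 34 tested members had a log2 fold change under 0 in each setting that gave one, Prdx1, Prdx4, Prdx6, Txn1, Txn2, Gpx1, Gpx4, Gpx8, Glrx, Glrx3, Gsta4 and Mgst1 among them. The number of genes called was 478 without a filter, 274 in DESeq2, 5 with limma on log2(TPM + 1) and 1 with the replicate block, against 0 in edgeR, and 0 to 1 when each library was left out. Members called were 6 without a filter and 5 in DESeq2. Members at an unadjusted p under 0.05 were 21 without a filter (60.0%, against 13.8% of all genes). They were 1 with the replicate block (2.94%, against 1.19%) and 1 in the libraries numbered 1 and 2 (3.03%, against 2.38%). With detected genes as a covariate they were 0 (3.24% of all genes). When each WT library was left out, 9 to 16 members were lower at that p (26.5% to 45.7%, against 6.24% to 13.0% of all genes). With the replicate block only the libraries numbered 1 and 2 inform the group term, as no other number occurs in both groups. This setting and the fit to those libraries alone therefore compare the same libraries. The median of the members was -0.70 with the replicate block, -0.68 in the libraries numbered 1 and 2 and -0.30 with the covariate, and ranged from -2.59 to -0.92 when each library was left out. That of the wider list ranged from -1.57 to -0.82. The libraries that moved these values most were cKO replicates 1 and 2. Each is 1 of 2 in its group, against 1 of 6 in WT, so leaving it out weighs more by design. Any further cause was not tested.

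Directions turned in 13 members. With the replicate block the log2 fold change was 0.29 for Prdx3, -0.10 for Txnrd2, -0.30 for Gss, -0.0196 for Nfe2l2, 0.10 for Keap1 and 0.28 for Hmox1. In the libraries numbered 1 and 2 it was 0.18 for Prdx3, -0.0602 for Txnrd2, 0.28 for Keap1 and 0.95 for Hmox1. With the covariate it was 0.17 for Prdx2, 1.09 for Prdx3, 0.90 for Prdx5, 0.0803 for Txnrd1, 0.36 for Sod2, 0.51 for Sod3, 0.94 for Cat, 0.43 for Gstm1 and 0.58 for Hmox1. Without the 2 shallowest libraries it was 0.31 for Sod3, 0.63 for Gstm1, 0.30 for Keap1 and 0.0506 for Hmox1. With limma on log2(TPM + 1) it was -0.12 for Gss and 0.30 for Gstm1. When each library was left out it ranged from -1.26 to 1.06 for Gss, -0.21 to 0.28 for Nfe2l2, -1.02 to 0.16 for Sod3, -1.30 to 0.46 for Gstm1, -1.06 to 0.36 for Keap1 and -9.52 to 0.20 for Hmox1, whose lowest value rests on a cKO count of 0 and is no measured size.

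The replicate numbers are shared by the groups for 1 and 2 only, and no label says what they mark. Deviations from the group means correlated at -0.30 for the pair numbered 1 and -0.17 for the pair numbered 2, across genes. The deviations of the 2 cKO libraries mirror each other, so these values cannot show whether same-numbered libraries share more than a number. Where an alternative leaves 1 cKO library, that library is assumed to vary like the WT libraries. Depth limits Nqo1, Srxn1, Prdx5, Gpx8, Cat, Mgst1 and Hmox1 most, as they had 4 reads or fewer in at least 1 cKO library.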

Other observations

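Some of the members that act in mitochondria (Prdx3, Txn2, Txnrd2, Sod2 and Glrx5) were described as a set chosen after their values were seen. Of these 5, 4 were lower in cKO, with a median log2 fold change of -1.35, close to that of all members, and Txn2 alone did not overlap between the groups. The 5 selenoprotein members (Gpx1, Gpx3, Gpx4, Txnrd1 and Txnrd2), also grouped after their values were seen, had a median of -1.45 and 4 lower. Ferritin, which stores iron, was in the wider list with both chains. Fth1 had a cKO mean of 179 and a WT mean of 1174 CPM (-2.70 ± 0.94, log2 fold change ± SE, edgeR adjusted p = 0.369, DESeq2 adjusted p = 0.0191), and Ftl1 had 884 and 3103 CPM (-1.81 ± 0.77, edgeR adjusted p = 0.381, DESeq2 adjusted p = 0.0435). WT replicate 1 lay inside the cKO range in both genes, at 168 CPM for Fth1 (277 and 82.0 CPM in cKO) and 920 CPM for Ftl1 (1386 and 381 CPM). Exons of Ftl1 overlap Gm10252 and Gm22133. Both ferritin genes were picked with their values in view.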
